A study of Mus musculus with 8 samples.

Results

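The spots described here are the 10% of Visium spots in each small intestinal section with the largest share of UMIs from Sis, Slc10a2, Cubn and Enpep, 4 genes of the absorptive brush border. They were chosen by these measured UMI shares and are called absorptive spots. UMIs are unique molecular identifiers, 1 for each captured RNA molecule. Spots needed at least 500 UMIs, and a spot that was also among the 10% with the largest share of Ada, Slc28a2 and Apoa4, genes of the villus tip, was left out. This gave 445 absorptive spots of 4665 spots in all, 198 of 2094 in section 1 and 247 of 2571 in section 2.

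The series concerned lymphatic vessels and stem cells of the mouse intestine and held 8 libraries. The 2 sections used here were wild-type small intestine of C57BL/6 mice, cut at 10 µm and run by the immunofluorescence Visium protocol. The labels gave no genotype beyond wild type, no age and no treatment for them. They were technical duplicates, so they count as 1 biological sample, no p-value can be given, and every interval below covers counting error only. A library of dissociated small intestinal cells was used as a further measurement. Its cells came from C57BL/6 and Lgr5-eGFP-ires-CreERT2 mice and were sorted to enrich LGR5+ stem cells and CD31+ PDPN+ LYVE1+ lymphatic endothelial cells. The 2 large intestinal sections, also C57BL/6, gave the level of the rule genes in another tissue.

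Enterocytes are the absorptive cells of the villus. They are born in the crypt, move up the villus and are shed at its tip, and on the way they change from antimicrobial to nutrient-absorbing and then to tip programmes. Their apical brush border carries enzymes that finish digestion beside the transporters that take up the products. In the ileum they also recover bile acids: Slc10a2 takes them up, Fabp6 carries them through the cell and the transporter made of Slc51a and Slc51b releases them to the blood.

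The 4 rule genes cover these tasks. Sis encodes sucrase-isomaltase, which splits sugars, and lies on chr3:72888557-72967863. Slc10a2, the apical bile acid transporter, lies on chr8:5083219-5105287. Cubn encodes cubilin, the receptor for the complex of intrinsic factor and vitamin B12, on chr2:13276338-13491876. Enpep encodes a brush border aminopeptidase on chr3:129269177-129332749. All are protein-coding genes, with coordinates of GRCm38.p6 from RefSeq, the release of the mm10 build that the submitters name.

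The 250 bases before the RefSeq start of Sis and Slc10a2 are printed because the promoter windows of these rule genes held the same pair of short motifs, and those of Fabp6 because it is a bile acid gene whose level varied with that of Sis among the absorptive spots. Capitals mark matches on either strand to GTTAAT, a core of the HNF1 site, CAAAGT, a core of the HNF4 site, TTTATG, a core of the CDX site, or AGATAA, a core of the GATA site. Sequences run 5′ to 3′ along the gene.
Sis, chr3:72967864-72968113, minus strand: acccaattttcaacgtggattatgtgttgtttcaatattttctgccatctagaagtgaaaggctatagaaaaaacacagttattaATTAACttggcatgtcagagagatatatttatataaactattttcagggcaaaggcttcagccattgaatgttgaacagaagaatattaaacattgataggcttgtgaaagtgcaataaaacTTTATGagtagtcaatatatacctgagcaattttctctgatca
Slc10a2, chr8:5105288-5105537, minus strand: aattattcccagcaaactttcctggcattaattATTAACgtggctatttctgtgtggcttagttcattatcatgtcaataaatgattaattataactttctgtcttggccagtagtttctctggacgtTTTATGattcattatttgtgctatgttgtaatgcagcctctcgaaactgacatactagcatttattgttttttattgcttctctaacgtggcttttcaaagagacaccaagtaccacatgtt
Fabp6, chr11:43601563-43601812, minus strand: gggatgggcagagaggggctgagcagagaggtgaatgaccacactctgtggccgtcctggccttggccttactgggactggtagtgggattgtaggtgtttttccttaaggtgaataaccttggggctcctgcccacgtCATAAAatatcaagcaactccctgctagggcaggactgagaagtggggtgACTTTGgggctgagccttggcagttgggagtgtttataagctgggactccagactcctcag

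The Sis window held a match to the HNF1 core that began 165 bases before the start, read on the other strand, and a match to the CDX core 43 bases before it. The Slc10a2 window held the same pair at 217 and 122 bases before its start. Fabp6 had a CDX match at 111 and an HNF4 match at 61 bases before its start. The windows of Cubn and Enpep, which reach 50 bases past the start like all windows searched, held none of these letters. A match describes the letters alone, and no binding was measured.

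The spots covered their range of the score without a gap. The last absorptive spot had 0.442% of its UMIs in the rule genes in section 1 and 0.467% in section 2. The first spot below it had 0.441% and 0.467%, so spots on either side of the line were alike in the score. The median absorptive spot had 0.514% and 0.549%, and the highest had 0.819% and 0.919%. These values chose the spots and are a description.

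**Figure D1:**
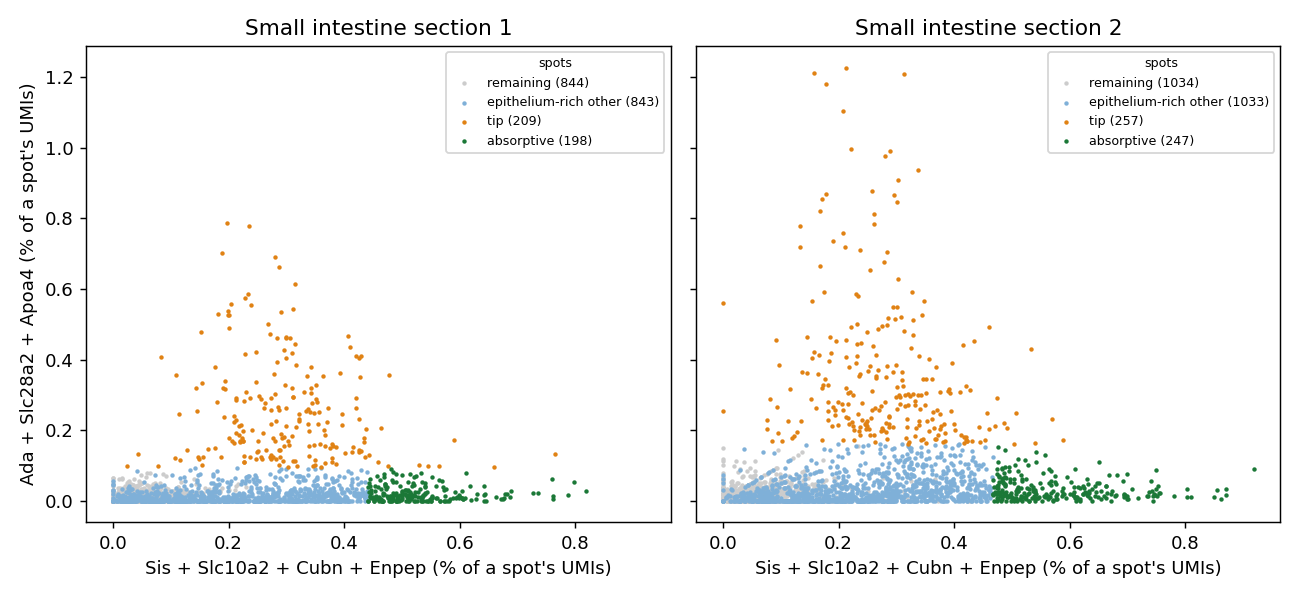
Share of a spot's UMIs in the 4 rule genes (horizontal axis, %) against the share in the 3 tip genes (vertical axis, %), 1 point per spot and 1 panel per section. The 445 absorptive spots lie to the right of the threshold and below the tip spots, and 11 and 10 spots past the threshold are shown as tip spots.

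Depth moved with the choice. Absorptive spots held a median of 16112 UMIs in section 1 and 18233 in section 2, against 9692.5 and 8592 in all other spots, 13344 and 12051 in tip spots. Deposited section totals were 24356162 and 30091604 UMIs. The mitochondrial share was alike, with medians of 6.00% and 5.73% in absorptive spots and 5.88% and 5.37% in all other spots. The part of depth in the results was not tested beyond the values given below for spots of like depth. A Visium spot is a small area that can hold several cells, so fewer cells of a type and less RNA per cell cannot be told apart.

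Slc10a2 gave the largest part of the score, 39.2% of the rule-gene UMIs in section 1 and 37.9% in section 2. It reached 2098 CPM (UMIs of the gene scaled to 1000000 UMIs of the class) in absorptive spots of section 1 and 2203 in section 2, against 631 and 733 CPM in all other spots. Sis reached 1471 and 1511 CPM against 418 and 444. Enpep reached 1542 and 1827 CPM against 523 and 609. Cubn was much lower, at 247 and 276 CPM against 67.6 and 79.1. Slc10a2 was the largest of the 4 genes in 140 of 198 spots and 156 of 247 spots, Sis in 37 and 42, Enpep in 21 and 49, and Cubn in 0 and 0.

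Each rule gene varied widely among the members. Sis ran from 445 to 3369 CPM per spot in section 1, with a median of 1337, and from 0 to 3523 in section 2, with a median of 1393. Slc10a2 had medians of 2119 and 2167 CPM and was absent from 1 spot. Cubn had no UMI in 23 spots of section 1 and 43 spots of section 2.

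RNA that spreads over a slide gives UMIs in spots that do not express a gene. With every spot thinned to 2000 UMIs, a Sis UMI was found in 90.4% of absorptive spots in section 1 (95% exact binomial interval 85.4 to 94.1) and 93.8% in section 2 (90.0 to 96.5). In the spots richest in smooth muscle, which should lack the gene, the share was 12.9% (8.69 to 18.2) and 14.1% (10.1 to 19.0), at median depths of 10174 and 12708 UMIs before thinning. Unthinned shares were 100% and 99.6% in absorptive spots and 50.2% and 52.9% in muscle-rich spots. Thinning left out 0 and 4 absorptive spots and 0 and 2 muscle-rich spots for having fewer UMIs. Slc10a2 showed the same order, 99.5% and 98.4% against 21.1% and 26.7%. The rule used both genes, so these shares are a description of the chosen spots. Fabp6, which the rule did not use, had a UMI in 100% and 99.6% of absorptive spots and in 80.9% and 69.4% of muscle-rich spots at the same thinned depth. In the large intestinal sections the pooled level was 0.0485 and 0.0456 CPM for Sis and 1.89 and 1.98 CPM for Slc10a2.

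The label places these spots in the middle of the villus. Positions on the slide were not used here, so that place was not measured, but lists of zone and region genes bear on it. The sections carried the ileal pattern: over all spots Fabp6 stood at 5815 and 5149 CPM and Slc51a at 1286 and 1508 CPM, while the jejunal gene Fabp1 stood at 48.3 and 45.2 CPM and lactase, Lct, at 0.534 and 0.665 CPM. A further list of 10 genes of the proximal small intestine was not absent, with summed levels of 924 and 938 CPM in absorptive spots against 470 and 510 in all other spots. Most of that sum came from S100g, a calcium-binding protein, and Rbp2, a retinol-binding protein, while the regional transcription factor Gata4 was at 2.11 and 3.20 CPM in absorptive spots. Of 8 crypt stem genes 6 had enough UMIs. In both sections 5 of them were at least 2-fold lower in the absorptive spots, beside 25.8% of all genes tested. Medians over the 6 were -1.99 and -2.33 on the log2 scale, beside -0.39 in both sections over all genes tested. The exception was Axin2, a target of WNT signals, at 45.3 and 54.7 CPM against 35.4 and 38.3. Lgr5 was at 3.02 and 2.56 CPM against 9.98 and 8.07 in all other spots, and Mki67, a marker of dividing cells, at 10.9 and 7.48 against 52.0 and 39.1. Tip genes that had no part in the rule were mixed: of 7 with enough UMIs, 5 in section 1 and 4 in section 2 were higher than in all other spots. Against tip spots, 5 such genes had enough UMIs and 0 were higher in either section, with median log2 ratios of -0.37 and -0.54. The transcription factor Klf4 was at 725 and 723 CPM against 1015 and 1143 in tip spots and 385 and 439 in all other spots. Nt5e, an enzyme that makes adenosine, was among those lower than in all other spots, at 3.32 and 7.05 CPM against 16.4 and 25.0 in all other spots. Of 7 antimicrobial genes of the villus base with enough UMIs, 6 were higher than in all other spots in each section, with medians of 0.79 and 0.76, and 4 in each were higher than in other epithelium-rich spots, with medians of 0.10 and 0.06. The spots are therefore called by their leading genes, as absorptive spots of an ileal section.

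The first comparison set the absorptive spots against all other spots of their section, tip spots included. A gene was called where its CPM differed at least 2-fold in the same direction in both sections, among genes with at least 200 UMIs over both classes in each section. Of 8993 genes, 150 were called higher (1.67%) and 2323 lower (25.8%). The choice of spots used 4 of the higher and 3 of the lower genes, and the same UMIs chose the spots, so the counts are a description. The median log2 ratio over all tested genes was -0.39 in both sections. With ratios centred on that median, 688 genes were higher and 1522 lower, and the share of higher genes among the calls moved from 6.07% to 31.1%.

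Transporters for amino acids and peptides were higher in the absorptive spots. Slc6a19, the neutral amino acid transporter of the brush border, was at 1305 CPM in section 1 and 1416 in section 2, against 399.7 and 518 in all other spots. The log2 ratios were 1.71 (95% interval 1.65 to 1.76) and 1.45 (1.41 to 1.49). Slc15a1, the peptide transporter, was at 888 and 1214 CPM against 313 and 473, with ratios of 1.51 and 1.36. Both sections had the higher level in the absorptive spots for each gene.

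Of the 12 genes in the list of amino acid and peptide transport, all were tested, 8 were called higher and 0 lower, and the median ratio was 1.2 and 1.12. Slc3a1 and Slc7a9, the subunits of the cystine and basic amino acid exchanger, were at 454 and 448 CPM against 180.4 and 206, and at 659 and 704 CPM against 287 and 327. Slc1a1, a glutamate transporter, was among the 4 not called, at 0.59 and 0.61.

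Every tested brush border peptidase was called higher, 10 of 10, with 11 listed and Enpep not among them. The median ratio was 1.33 and 1.22. Aminopeptidase N, Anpep, was the most abundant at 4982 and 6976 CPM, against 2013 and 3072 in all other spots. Dpp4, which removes dipeptides from peptide ends, was at 1066 and 1196 CPM against 394 and 474. Mep1b, the beta subunit of the metalloprotease meprin, was at 1937 and 2154 CPM against 745 and 872, with ratios of 1.38 and 1.30. The listed gene without a value was Tmprss15, the enteropeptidase of the duodenum, which had 0 UMIs in the absorptive spots of both sections, with an upper 95% bound of 1.11 and 0.788 CPM.

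Sugar uptake followed with 4 of 6 tested genes called higher, 0 lower and 8 listed, at medians of 1.17 and 1.08. Slc5a1, the sodium-glucose transporter, was at 2450.2 and 3055 CPM against 1053 and 1432. Slc2a5, the fructose transporter, was much rarer, at 92.4 and 104 CPM against 27.6 and 36.0, but had one of the largest ratios at 1.75 and 1.53. Mgam, which splits starch products as a partner enzyme of Sis, differed less, at 0.47 and 0.45. Lactase had 0 UMIs in the absorptive spots of either section.

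Genes of fat absorption divided. Of 20 listed, 18 were tested, 8 were called higher and 1 lower, and the medians were 1.05 and 0.91. Fabp2, the intestinal fatty acid binding protein, was at 7682 and 8018 CPM against 3242 and 3879. Mttp, which loads lipid onto apolipoprotein B, was at 818 and 871 CPM against 325 and 375. Apoa1, an apolipoprotein of the particles that carry lipid, was at 1.09 and 0.82 and missed the call in section 2. The lower gene was Cd36, a fatty acid receptor, at 1.81 and 2.35 CPM against 14.5 and 13.9.

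Among the bile acid genes, Fabp6, Slc51a and Slc51b were higher by about as much as the calling threshold. Fabp6 was the most abundant, at 10549.8 and 8769 CPM against 5070.5 and 4482, with ratios of 1.06 and 0.97. Slc51a was called at 1.15 and 1.09 and Slc51b at 1.24 and 1.08, so 2 of 5 tested genes were called higher, with 6 listed. Fgf15, the ileal hormone that signals to the liver, was low at 26.3 and 44.9 CPM against 18.8 and 32.9, with ratios of 0.48 and 0.45. Leaving Sis out of the score lowered Fabp6 to 0.73 as the mean over both sections.

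Of 6 listed partners of cubilin and genes of endocytic uptake, 5 were tested, 1 was called higher and 2 lower, with medians of -0.75 and -0.93. Over all tested genes 1.67% were called higher and 25.8% lower. Amn, the membrane protein that carries cubilin to the surface, was called higher at 1.13 and 1.09, with 211 and 263 CPM against 96.6 and 123. Lrp2, the partner receptor in the kidney, had 0 UMIs in the absorptive spots of both sections. Dab2, an endocytic adaptor, was called lower at -3.42 and -2.53, and so was Lrpap1, a chaperone of such receptors, at -1.52 and -1.29. Tcn2, the carrier of vitamin B12 in blood, was at 419.7 and 506.8 CPM against 221 and 277, short of the threshold.

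Genes of ion and drug handling were mostly higher, with 11 of 13 and 13 of 14 tested genes above 0 in each section. The counts of calls stand beside 1.67% of all tested genes called higher and 25.8% lower. Of 13 ion and acid-base transporters tested, 5 were called higher and 1 lower. The sodium pump subunit Atp1b1 was at 1.24 and 1.23. The lower gene was Slc12a2, the crypt chloride importer, at -2.25 and -2.78, while Slc13a1, the sulfate transporter, was among the higher genes at 1.52 and 1.45. Of 21 listed genes of drug and xenobiotic metabolism, 14 were tested, 7 were called higher and 1 lower. They included the efflux pumps Abcg2 at 1.18 and 1.11 and Abcb1a at 1.34 and 1.30, and the carboxylesterase Ces2e at 1464 and 1495 CPM against 679 and 710.3. The lower gene was Gstm1.

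Of 18 enterocyte transcription factors, 16 were tested and 1 was called in each direction, beside 1.67% of all tested genes higher and 25.8% lower. Maf, a regulator of the enterocyte programme, was higher at 860.3 and 934 CPM against 343 and 403. Sox9, a crypt factor, was lower at 11.8 and 13.2 CPM against 45.8 and 39.6. Hnf4a was at 0.50 and 0.66 and Cdx2 at 0.37 and 0.46, below the threshold.

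The 15 genes with the largest ratio in section 1, outside the rule and tip genes, all passed the 2-fold threshold in section 2 as well. They were Nat8f5, Angptl4, Slc2a5, Aspa, Slc6a19, Akr1b7, Ccdc152, Vnn1, Upp1, Slc25a48, Slc13a1, Pdzk1, Slc15a1, U90926 and Tmigd1. Nat8f5, an acetyltransferase-family gene, led with 32.6 and 35.7 CPM against 8.60 and 11.9. It has close relatives in Nat8 and Nat8f4, which were also called, so reads could be shared among them, and Ccdc152 overlaps Selenop. Angptl4, a secreted inhibitor of lipoprotein lipase, differed most between sections, at 1.77 and 1.00. Upp1, uridine phosphorylase, was at 863 and 749 CPM against 293 and 294. The 8 lowest, Gal, Aebp1, Ccdc80, Thbs2, Nexn, Serpine2, Ndrg4 and S100a4, also passed in section 2, and they include the neuropeptide galanin and matrix genes of stromal cells.

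Markers of stromal, crypt and some immune cells were lower in these spots. All 6 smooth muscle genes, all 6 fibroblast genes and all 5 tested macrophage genes of 7 listed were called lower than in all other spots. Over all tested genes 25.8% were called lower and 1.67% higher, and the counts in this paragraph stand beside these shares. Summed levels of the smooth muscle list were 1040 CPM in section 1 and 1310 in section 2, of which Acta2 gave 217 and 287 CPM against 2066 and 3022 elsewhere. Of the 8 Paneth genes 7 were called lower, but Defa24, a defensin, still stood at 4727 and 2612 CPM against 23170.5 and 12799.9. Of the 5 plasma cell genes 4 were called lower, with Igha at 2381 and 1895 CPM against 6384 and 6576. Of 9 T cell and intraepithelial lymphocyte genes 3 were tested and 0 were called, with medians of 0.33 and -0.08 and summed levels of 197 and 185 CPM against 166 and 177. Of 7 goblet genes 0 were called higher and 1 lower, near the shares over all genes, with medians of 0.46 and 0.49 and Muc2 at 2956 and 2722 CPM against 2642 and 2311. The part of these cell types in the lists above was not tested, apart from the comparisons with epithelial spots that follow.

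Lymphatic and niche genes, the subject of the series, were near the detection limit. Of 6 lymphatic endothelial genes 2 were tested, and both were called lower: Ccl21a was at 2.72 and 1.71 CPM against 33.1 and 35.1, and Mmrn1 at 2.72 and 0.855 against 13.9 and 16.3. Of 12 secreted niche factors 5 were tested and all 5 were called lower, among them Grem1, a BMP antagonist, at 8.76 and 13.2 CPM against 104 and 132. Rspo3, an amplifier of WNT signals, had 0 UMIs in section 1 and 0.427 CPM in section 2, against 8.22 and 8.82 CPM elsewhere. The counts for both lists stand beside 25.8% of all tested genes called lower. The UMI minimum was taken over both classes, and all other spots held 86.4% and 84.4% of the UMIs. A rare gene was therefore tested mostly where its level in all other spots was high enough, which favours lower calls. The counts are a description of the genes that passed.

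The second comparison set the absorptive spots against the tip spots, the most like class. Of 3723 genes, 17 were called higher (0.457%) and 65 lower (1.75%), and the median over all tested genes was -0.01 and 0.00. Sis was among the higher genes and Ada, Slc28a2 and Apoa4 among the lower ones by choice. The other rule genes were higher by less than 2-fold in both sections, Slc10a2 at 1333 and 1301 CPM in tip spots and Cubn at 147 and 149.8.

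The 16 other higher genes included transporters for sugar, ions and amino acids. Slc2a5 was at 92.4 and 104 CPM against 31.3 and 32.6 in tip spots, with ratios of 1.56 (1.22 to 1.92) and 1.67 (1.37 to 1.99). Slc26a3, the chloride-bicarbonate exchanger, was at 48.9 and 50.0 CPM against 17.9 and 16.0, with ratios of 1.45 and 1.64. Slc1a1 was at 282 and 307 CPM against 119 and 119, and Slc6a20a, a proline transporter, at 107 and 117 against 41.3 and 54.7. Slc26a3 and Slc1a1 were not called against all other spots, and stood below 0 against the epithelium-rich other spots described next, at -0.29 and -0.35 and at -0.06 and -0.05.

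Ccl25, the chemokine that draws lymphocytes to the small intestine, was at 574 and 642 CPM against 259 and 272 in tip spots, with ratios of 1.15 and 1.24. Reg3b, an antimicrobial lectin of the lower villus, was at 63185 and 53775 CPM against 36386 and 25791, with ratios of 0.80 and 1.06. Its relative Reg3g was at 0.60 and 0.68, and the 2 genes are similar in sequence. Of 8 antimicrobial genes of the villus base 6 were tested, 1 was called higher and 0 lower, with medians of 0.66 and 0.87.

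The 15 genes with the largest ratios in section 1 also included Slc16a5, Cyp2u1, Tubal3, Maoa, Abhd6, Me2, Chdh, Slc25a15 and Slc30a2. Of the 15, 14 passed in section 2, and Slc25a15, the mitochondrial ornithine carrier, was at 1.09 and 0.87. Maoa, which breaks down monoamines, was at 237 and 223 CPM against 108 and 78.4. In spots of 10000 to 20000 UMIs in both classes, a setting chosen after seeing the data, 2093 genes were tested, 7 were called higher and 36 lower.

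Among the genes lower than in tip spots, Cldn4, a tight junction claudin, was at 31.1 and 49.8 CPM against 325 and 520.0, with ratios of -3.39 (-3.69 to -3.09) and -3.38 (-3.59 to -3.19). Gprc5a was at -3.25 and -3.12, Marcksl1 at -2.17 and -2.43, Clca4a at -2.15 and -2.36 and Pmepa1 at -2.03 and -2.10. Clca4a has a close relative in Clca4b, which stood at -0.21 and -0.27. Creb3l3, a regulator of lipid genes, was at 49.2 and 68.2 CPM against 189.6 and 299. Prdm1, a transcription factor, was at -1.08 and -1.51 and Fgf15 at -1.20 and -1.35.

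Cfd, Scd1 and Fabp4 were also among the 8 lowest in section 1, at -3.03, -2.28 and -2.21. They are known from fat cells, and in section 2 they were under the 200 UMI minimum and are no calls, at -1.20, -1.37 and -0.89. In tip spots Fabp4 stood at 78.4 CPM in section 1 and 24.6 in section 2, so the sections differed in the tip class more than in the absorptive class, where it stood at 16.9 and 13.2.

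Against tip spots, the counts for the nutrient lists stand beside 0.457% of all tested genes called higher and 1.75% lower. Of 9 tested brush border peptidases 0 were called, with medians of 0.33 and 0.32. Of 16 tested fat absorption genes 0 were called, with medians of 0.01 and -0.11, and Fabp2 was at -0.61 and -0.67 and Apoa1 at -0.65 and -0.80. Of 10 tested amino acid transporters 2 were called higher, Slc6a20a and Slc1a1. Slc6a19 was at 1161 and 1283 CPM in tip spots, with ratios of 0.17 (0.10 to 0.23) and 0.14 (0.09 to 0.20).

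**Figure D2:**
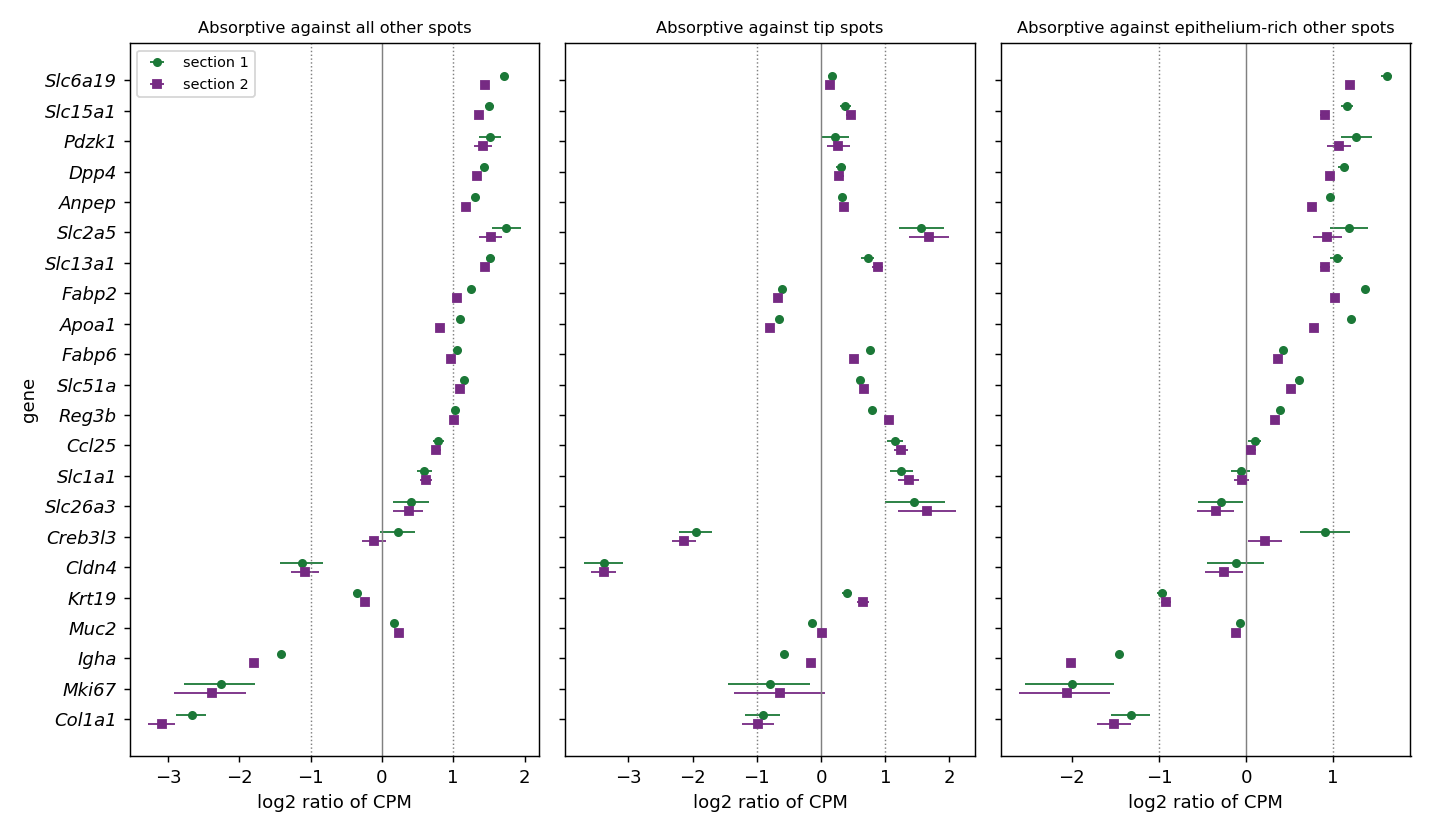
Log2 ratio of CPM (horizontal axes) for 22 genes in absorptive spots against 3 other classes, with 95% counting intervals, circles for section 1 and squares for section 2. Dotted lines mark the 2-fold threshold. Slc2a5, Ccl25, Slc1a1 and Slc26a3 exceed it against tip spots, while Slc6a19 and Pdzk1 exceed it against the other 2 classes.

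The third comparison set the absorptive spots against other spots rich in epithelium. It used the epithelium-rich other spots, the 50% of spots in neither class with the largest share of 10 pan-epithelial genes, 843 spots in section 1 and 1033 in section 2. Of 6427 genes, 14 were called higher (0.218%) and 589 lower (9.16%), with medians over all tested genes of -0.24 and -0.22. Centred on those medians, 78 were higher and 314 lower, and the share of higher genes moved from 2.32% to 19.9%. Besides the 4 rule genes the higher genes included Slc6a19, Fabp2, Pdzk1, Vnn1, Tmigd1, Clca4b, Nat8f5, Pck1 and 2010106E10Rik, of which Pck1 and 2010106E10Rik lie outside the rule for named genes and were named after their values were seen.

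Slc6a19 led among the abundant genes, with 427 and 619 CPM in epithelium-rich other spots and ratios of 1.61 and 1.19. Pdzk1, a scaffold for brush border transporters, was at 58.2 and 74.5 CPM there, with ratios of 1.26 and 1.07. Fabp2 was at 2978 and 3965 CPM there, with ratios of 1.37 and 1.02. Vnn1, a pantetheinase, was at 1.41 and 1.10 and Tmigd1, an adhesion protein of the brush border, at 1.25 and 1.05. In all of these the ratio was smaller in section 2. Against epithelium-rich other spots, 1 of 9 tested brush border peptidases and 1 of 12 amino acid and peptide transport genes were called higher. The counts were 1 of 17 for fat absorption, 0 of 6 for sugar digestion and transport and 0 of 5 for bile acid handling. In each of these lists 0 were called lower. Over all tested genes 0.218% were called higher and 9.16% lower.

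The calls depended on the sections, on the score and on how rich in epithelium the other spots were. With the score taken from spots thinned to 2000 UMIs, 1 of the 14 genes was called higher, and 5 without Slc10a2 in the score. Median UMIs were 16112 and 18233 in absorptive spots against 9898 and 8179 in epithelium-rich other spots. In spots of 10000 to 20000 UMIs in both classes, 3520 genes were tested and 12 were called higher, 7 of them among the 14. Of 70 genes past the threshold in section 1, 20.0% were called, and of 15 in section 2, 93.3%. Of the 15 genes with the largest ratios in section 1, all were above 0 in section 2 and 8 passed the threshold. With the upper 25% of spots by epithelial share in place of the upper 50%, 2 genes were called higher. Slc6a19 was then at 1.51 and 1.02, while Pdzk1, at 1.14 and 0.97, and Fabp2, at 1.30 and 0.87, were below the threshold in section 2. So was Slc10a2, at 1.15 and 0.94, and Sis and Enpep were below it in both sections, at 0.96 and 0.92 and at 0.92 and 0.94.

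Markers of dividing cells were lower than in epithelium-rich other spots. The 8 lowest named genes were Bmp3, Fbl, Gsdmc3, Ccna2, Ube2c, Ccnb2, Racgap1 and Pycard, and all 8 were at least 2-fold lower in section 2 as well, though Racgap1 was under the 200 UMI minimum in a section and is no call. Bmp3, a secreted BMP, was at 3.93 and 4.27 CPM against 37.5 and 30.5. Of 5 tested proliferation genes 4 were called lower, with Mki67 at 10.9 and 7.48 CPM against 43.5 and 31.1. Krt19, an epithelial keratin, was at 867 and 676 CPM against 1692 and 1279, with ratios of -0.96 and -0.92. Plasma cell genes were also lower, 4 of 5 tested, with Igha at -1.46 and -2.01, and all 6 fibroblast genes were called lower, and smooth muscle and Paneth genes were below 0 in both sections without a call, 6 of 6 with medians of -0.84 and -0.81 and 8 of 8 with medians of -0.67 and -0.85.

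Ordering the spots by the score showed how these groups follow it. Spots outside the tip class were split into 10 groups of 188 to 189 spots in section 1 and 231 to 232 in section 2. The brush border peptidases were higher at each of 9 steps, from 812 to 12390 CPM summed over the list in section 1 and from 1136 to 15508 in section 2. Fat absorption genes went from 1344 to 19756 and from 1793 to 21302. Crypt stem genes went from 1423 to 167 CPM and from 1076 to 125. Since the score and the lists share their spots, these profiles are a description.

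Some groups were not highest at the top of the score. The list of T cell and intraepithelial lymphocyte genes was highest in group 9 of section 1 and group 8 of section 2, at 332 and 326 CPM, and lower in group 10, at 187 and 187. Plasma cell genes were highest in group 7 of both sections, at 15854 and 26496 CPM, and stood at 4267 and 3541 in group 10. Goblet genes were highest in group 9, at 26103 and 21619 CPM. Median UMIs per spot also differed over these groups, from 8124.5 in group 7 to 16107 in group 10 of section 1 and from 6949 to 18490 in section 2, and the part of depth in this was not tested.

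**Figure D3:**
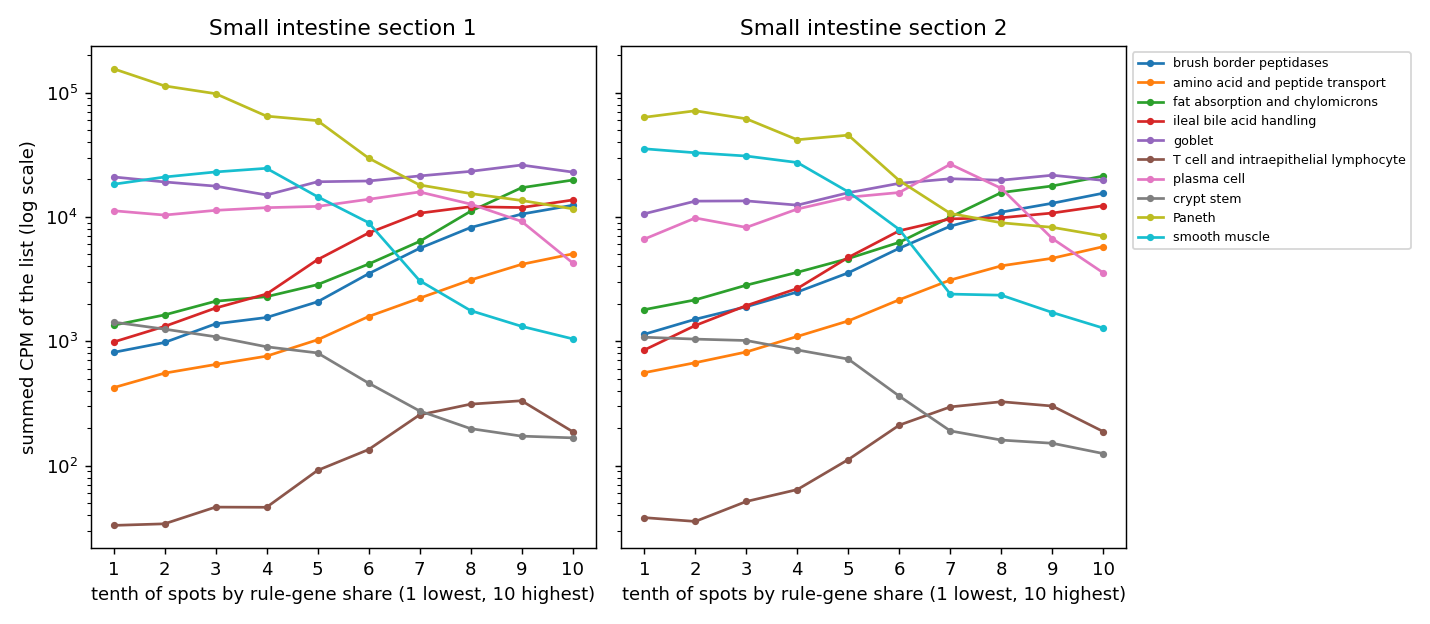
Summed CPM of 10 gene lists (vertical axis, log scale) over 10 groups of spots ordered by the rule-gene share (horizontal axis), 1 panel per section. Peptidase, transport and fat absorption lists climb to group 10, lymphocyte and plasma cell lists are highest in groups 7 to 9, and crypt, Paneth and smooth muscle lists are lowest in group 10, with smooth muscle highest in group 4 of section 1 and Paneth in group 2 of section 2.

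The absorptive spots were not uniform. Choosing spots by a sum pushes its parts against each other, so relations among the rule genes say little. The choice also enters the relation of each rule gene to genes outside the rule, so the values below are a description. Over the spots, Sis and Fabp6 CPM correlated at r = 0.54 in section 1 (n = 198) and 0.48 in section 2 (n = 247). Slc10a2, which handles the same bile acids as Fabp6, gave -0.32 and -0.08, Enpep -0.14 and -0.04, and Cubn 0.15 and 0.17. Slc10a2 is part of the sum that chose the spots. Over all spots of a section, its correlation with the summed list of bile acid genes was 0.62 in both sections (n = 2094 and 2571), and that of Sis was 0.74 and 0.69. These points share a library and are a description without a test. Fabp6 itself ran from 1987 to 29919 CPM over the spots of section 1, with a median of 8714, and from 1248 to 24302 in section 2, with a median of 7066.

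**Figure D4:**
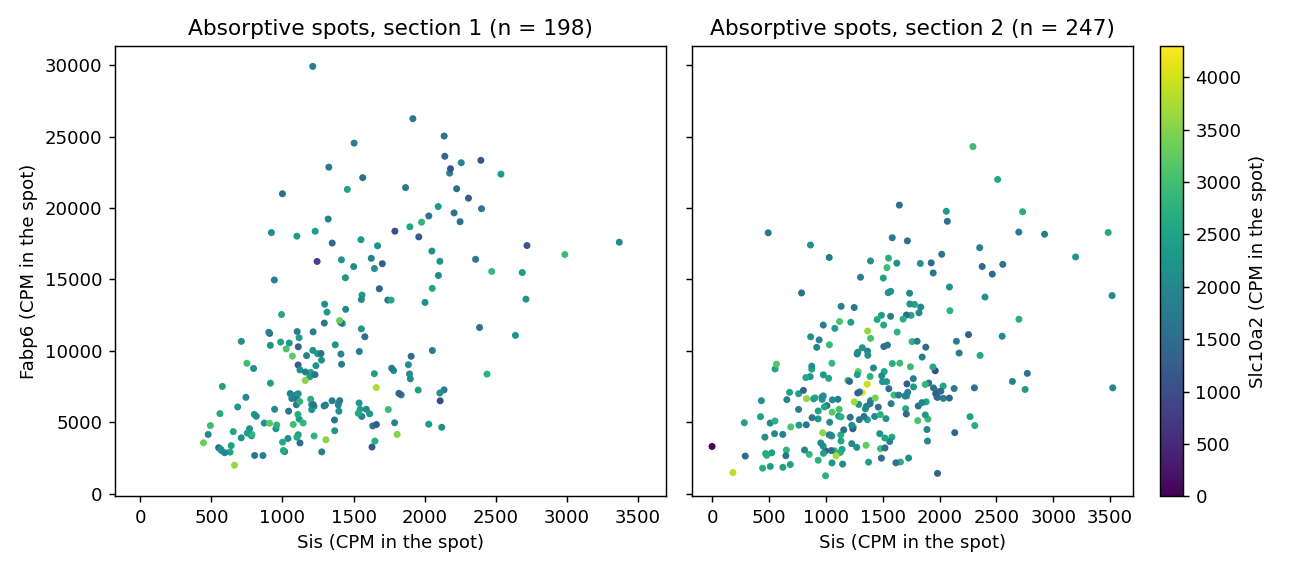
Fabp6 CPM (vertical axis) against Sis CPM (horizontal axis) in each absorptive spot, coloured by Slc10a2 CPM, 1 panel per section. Spots high in Fabp6 lie towards higher Sis in both panels, with wide scatter.

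To give sizes, the spots of each section were split at the median share of Sis among the rule-gene UMIs, 25.8% and 24.5%. These UMIs also chose the spots, and a higher Sis share means a lower share of the other rule genes. The ratios and counts below are therefore a description of the chosen spots. This split was added after the data had been seen. In spots of higher Sis share, Fabp6 stood at 13522 and 10694 CPM, against 7216 and 6360 in spots of lower share, with log2 ratios of 0.91 (0.87 to 0.94) and 0.75 (0.72 to 0.78). Slc51a was at 0.07 and 0.01 and Slc51b at 0.22 and 0.35. Fabp2 went the other way, at -0.62 and -0.38, and so did Anpep, at -0.16 and -0.31. Krt19 was at 0.38 and 0.63, Slc1a1 at 0.57 and 0.28 and Slc26a3 at 0.60 and 0.49. Summed marker lists moved with the split too: lymphocyte genes were at -0.45 and -0.62, smooth muscle genes at -0.43 and -0.25, Paneth genes at 0.14 and 0.28 and genes of the proximal small intestine at 0.37 and 0.35. The tip genes of the rule, whose level the choice of spots limited, were at -0.83 and -0.93. The part of these in the Fabp6 difference was not tested. Slc6a19 was at -0.24 and -0.12. Of 2334 genes tested in both sections, 0 were 2-fold higher (0%) and 1 was lower (0.0428%), Slc6a14, at -1.37 and -1.24. Median UMIs were 16822 and 19887.5 in spots of higher share and 15302 and 14863 in those of lower share.

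The dissociated cells gave the same score in another kind of sample. Of 8842 barcodes, 2756 were kept that showed 500 or more genes and no more than 20% of UMIs from mitochondrial genes, and doublets were not removed. The same rule took 172 absorptive cells, with a median of 29011.5 UMIs, against 10747 in all other cells. The cells had a different make-up of the score: Sis was at 1826 CPM, Enpep at 376, Slc10a2 at 92.7 and Cubn at 58.2, so Sis and not Slc10a2 led. As 1 sorted library, this has no test.

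Most genes higher in spots in the first comparison were also higher in those cells. The cells were chosen by the same rule genes, from a library sorted to enrich stem and lymphatic endothelial cells. Of the 2584 other cells, 957 had a rule-gene UMI. This choice alone favours higher levels of enterocyte genes in the chosen cells, so the counts below are a description and no independent test of the spots. Of the 146 genes called higher in spots besides the rule genes, 134 had enough UMIs in the cells, 124 were at least 2-fold higher and 132 were above 0. Of all 10792 genes tested in the cells, 9.75% were at least 2-fold higher and 41.8% above 0. Of the 2320 lower genes besides the tip genes, 2022 were tested, 1110 were at least 2-fold lower and 1861 below 0, beside 25.6% and 58.2% of all genes tested. Of the 589 lower genes of the third comparison, 540 were tested, 237 were 2-fold lower and 490 below 0, beside 23.5% and 63.6%. Slc15a1 was at 94.5 CPM against 15.3 in all other cells and Anpep at 785 against 131. Of the 10 genes called against epithelium-rich spots 9 were tested and 8 were 2-fold higher against epithelium-rich other cells, beside 8.22% of 9375 genes tested there, Slc6a19 at 76.3 CPM against 6.44 among them. Pck1 was the exception, at 4.57 against 8.42. The comparison classes were unlike: 563 of the 1154 epithelium-rich other cells had a rule-gene UMI, and their median rule-gene share was 0%. In epithelium-rich other spots the median share was 0.203% in section 1 and 0.245% in section 2.

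The genes higher than in tip spots were mostly not 2-fold higher in the cells. Of the 16 genes, 15 were tested against the tip cells, 1 was 2-fold higher (0.926% of all genes tested) and 10 were above 0, beside 60.6% of all genes tested. That gene was Slc1a1, at 115 CPM against 30.4. Slc2a5 went the other way, at 30.1 against 41.4 CPM. Of the 62 genes called lower, 23 were tested in the cells, 9 were 2-fold lower and 20 were below 0, beside 2.46% and 39.4% of all genes tested. The tip cells differed from the absorptive cells in depth, with median UMIs of 6361 against 29011.5. They also differed in regional genes, with Fabp6 at 486 CPM against 10533 and Fabp1 at 9129 against 2202. In the sections Fabp6 was also lower in tip spots, by less, at 6189.6 and 6112 CPM against 10549.8 and 8769, and Fabp1 was at 78.1 and 80.3 CPM in tip spots and 86.7 and 83.3 in absorptive spots. The part of depth and of this regional difference in the comparison of cells was not tested.

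Promoter windows described the higher genes further. Of the 146 genes called higher against all other spots besides the rule genes, 121 had a window of 250 bases before to 50 after a start in the RefSeq table. The HNF4 core CAAAGT was found in 34 of them, 28.1%, beside 13.9% of 7161 tested genes and 16.1% of all 27025 genes with a window. The HNF1 core GTTAAT was found in 15, 12.4%, beside 5.22% and 8.24%. The GATA core AGATAA was found in 19, 15.7%, beside 7.53% and 12.7%, and the CDX core TTTATG in 14, 11.6%, beside 8.02% and 13.6%. Of the 2323 lower genes, 1819 had a window, and 14.0% held the HNF4 core and 4.95% the HNF1 core. Of the 10 genes called against epithelium-rich spots, 8 had a window and 4 held the HNF1 core. Of the 16 called against tip spots, 12 had a window, 2 held the HNF1 core, 1 the CDX core and 0 the HNF4 or GATA core. The motifs were searched on both strands, and no core contains another, though neighbouring matches can share bases.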

How the data were processed

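Per the labels' protocols, 10x Visium libraries were made from 10 µm cryosections of small and large intestine and 10x single-cell libraries from sorted cells. The deposited values are UMI counts per gene and barcode with no normalization. Per the file headers, the authors counted the Visium libraries with Space Ranger 1.2.1, while the submitters' processing notes name Cell Ranger 6.0.1 and mm10. Files listed tissue-covered spots and called cells, and 32158 of 32285 gene IDs matched the reference table of gene names. UMIs were pooled per class and section in Python 3.11.15 (numpy 2.4.6, scipy 1.17.1, pandas 2.3.3). Log2 ratios of CPM have exact 95% intervals for a ratio of Poisson counts, and a count under 3 was set to 3. Calls needed a log2 ratio of at least 1, or at most -1, in both sections and 200 UMIs. The 4 rule and 3 tip genes, gene models, mitochondrial, ribosomal protein and sex genes were not named; the named genes are the 15 highest and 8 lowest in section 1 of each comparison, and members of 34 gene lists. The members and lists were chosen with earlier results of these data known. Calling was tested on simulated data. Spots are not replicates and no p-value was computed. Sections share 1224 slide barcodes, which are fixed positions. Alternatives covered the share of spots, the score, depth, scaling, gene minimum and fold. Organoid libraries and the sorted large intestinal cells were not used here. Some genes counted in the totals are not reported here by name.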

Additional observations from a re-analysis of the deposited data

How the results depend on the processing

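Of 72 list medians and 140 named ratios, 0 called values changed sign under the alternatives run. A change of sign was counted only where the main value was at least 2-fold in both sections, which many list medians were not. Signs were not checked gene by gene for the counts of called genes. List medians moved by less than the SD between sections in 729 of 1104 values, and named ratios in 1648 of 2146. No paired analysis was possible because the results come from no test. Each ratio was already taken within a section. Against all other spots, 150 genes were higher. This became 226 with the top 20% of spots, 95 with the score from spots thinned to 2000 UMIs, 226 with the mean of each spot's CPM, 688 with centred ratios and 665 at 1.5-fold. The 2323 lower genes became 1522 with centred ratios, 4154 at a gene minimum of 50 UMIs and 1167 in spots of 10000 to 20000 UMIs, a setting chosen after seeing the data. In that depth window 159 genes were higher than in all other spots and 12 higher than in epithelium-rich spots, within 1.5 times the main counts, and the numbers of genes tested were 6360, 2093 against tip spots and 3520 against epithelium-rich spots. Against tip spots, 17 higher genes became 10 with thinning, 29 at the 50 UMI minimum, 131 at 1.5-fold and 7 in the depth window, and 65 lower genes became 178, 222 and 36 at the last 3 of these. Against epithelium-rich spots, 14 higher genes became 6 with the top 5%, 72 with the top 20%, 5 without Slc10a2 in the score, 1 with thinning, 31 with mean spot CPM, 78 when centred, 198 at 1.5-fold and 2 with the upper 25% by epithelial share. The 589 lower genes became 349 with thinning, 314 when centred, 1498 at the 50 UMI minimum, 1421 at 1.5-fold, 109 with the upper 25% and 194 in the depth window. Leaving out a section, so that 1 section alone made the calls, gave 175 to 258 and 2647 to 3139 genes against all other spots, 20 to 47 and 93 to 140 against tip spots, and 20 to 70 and 855 to 878 against epithelium-rich spots. The cause of these changes was not tested. Depth limits the genes under the 200 UMI minimum, lymphatic and niche genes among them, and the tip comparison, which tested 3723 genes.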
